A study of Mus musculus with 2 samples.

Results

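The 9 mouse genes of the SoxC, SoxD and SoxE groups were read for ARID4B binding in the testis at postnatal day 1.5. They were taken by name (Sox4, Sox11 and Sox12 of SoxC, Sox5, Sox6 and Sox13 of SoxD, Sox8, Sox9 and Sox10 of SoxE), and are 9 of 21887 protein-coding genes on the assembled chromosomes. For each gene, all ARID4B intervals that overlapped its record or lay within 50 kb of it were collected. ARID4B is an AT-rich interaction domain protein found in the SIN3-histone deacetylase complex. The material was 1 pool of 108 wild type testes from mice of hybrid C57BL6/J and 129/SvEv background, kept on standard chow, from which 1 anti-ARID4B ChIP library and 1 input library (no antibody) were made. Nothing was replicated, no testes lacking ARID4B are among the samples, and whole testes were used, so an interval cannot be assigned to a cell type and no difference below has an error or a p-value. The deposited list held 6632 intervals on 19 autosomes and the X chromosome, with a median width of 1084 bp and a median score of 124.98 (lowest 70.02, highest 1760.61). The score is the authors' own value for each interval, whose scale no source states. A larger score is assumed to stand for stronger evidence, which was not tested, and every rank and best interval below rests on that. It is used here only to describe and rank intervals within this list. The read depth of either library is unknown.

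Sox proteins bind DNA through a high mobility group box that fits into the minor groove and bends the helix. SoxC proteins act in progenitors of many tissues, and mouse SOX4 is known for its part in shaping the fetal gonad. SoxD proteins carry a coiled coil in place of an activation domain and work beside SoxE proteins, as SOX5 and SOX6 do with SOX9 in cartilage. Within SoxE, SOX9 directs the supporting cells of the XY gonad to become Sertoli cells, SOX8 helps to keep that state, and SOX10 is best known from the neural crest and its glia. The genes of SOX4, SOX11 and SOX12 have no introns.

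Of the 9 genes, 8 had an ARID4B interval within 1 kb of an end of the gene record, as had 27.1% of all protein-coding genes. Sox6 was the exception. The 9 genes were chosen with earlier results of these data known. The shares of all protein-coding genes are therefore set beside theirs as description and not as a test. By group, an interval lay at 3 of 3 SoxC, 2 of 3 SoxD and 3 of 3 SoxE genes. The best interval at an end of each of the 8 genes had a median score of 200.83. Over the 5930 protein-coding genes with an interval at an end the median was 132.24. Of these 8 best intervals 7 scored above the list median, all but that of Sox5, as did those of 54.6% of the 5930 genes. With intervals above the median alone, 7 of the 9 genes had one at an end, and 14.8% of all protein-coding genes. Counting anything in the record or within 50 kb, the 9 genes had 14 intervals, a mean of 1.56 per gene against 1.01 over all protein-coding genes. The same 8 of 9 genes had at least 1, where the share of all protein-coding genes was 52.3%. Of the 14 intervals, 9 lay at an end of a Sox record, 1 deeper inside a record and 4 outside. For 11 of them the Sox gene was the nearest protein-coding gene, and 11 scored above the list median.

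The bases just upstream of the starts show what the intervals did and did not cover. RefSeq promoter entries on GRCm38 were matched for 7 of the 9 genes, all on the minus strand. Sox9 and Sox10 were the others. The 250 bases before the start are given 5′ to 3′ for 5 of them, Sox4 and Sox8 because an interval lies over them, Sox11 and Sox12 because their interval begins downstream, and 1 of the 6 starts listed for Sox6, picked for its GC boxes after the sequences were seen, because that gene had no interval. Capitals mark matches on either strand to the CCAAT box (CCAAT, or ATTGG), the GC box (GGGCGG, or CCGCCC), the SOX motifs AACAAT (or ATTGTT) and ACAAAG (or CTTTGT) and the TATA box (TATAAA, or TTTATA), and neighbouring matches can run together.
Sox4, chr13:28953700-28953949: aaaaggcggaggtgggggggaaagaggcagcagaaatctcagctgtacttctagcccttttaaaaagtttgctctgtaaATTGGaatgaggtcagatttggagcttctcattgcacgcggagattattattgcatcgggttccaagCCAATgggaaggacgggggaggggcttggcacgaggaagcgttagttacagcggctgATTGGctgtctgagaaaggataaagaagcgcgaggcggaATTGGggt
Sox8, chr17:25570687-25570936: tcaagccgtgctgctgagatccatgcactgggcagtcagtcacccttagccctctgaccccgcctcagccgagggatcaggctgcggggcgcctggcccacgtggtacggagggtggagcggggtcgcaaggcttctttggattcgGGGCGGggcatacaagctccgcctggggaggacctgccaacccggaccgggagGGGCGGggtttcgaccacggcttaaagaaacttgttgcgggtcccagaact
Sox11, chr12:27342719-27342968: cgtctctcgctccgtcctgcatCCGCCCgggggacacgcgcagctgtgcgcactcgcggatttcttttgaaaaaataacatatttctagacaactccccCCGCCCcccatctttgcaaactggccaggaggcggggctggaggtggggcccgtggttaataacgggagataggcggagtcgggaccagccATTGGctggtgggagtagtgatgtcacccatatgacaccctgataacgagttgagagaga
Sox12, chr2:152398047-152398296: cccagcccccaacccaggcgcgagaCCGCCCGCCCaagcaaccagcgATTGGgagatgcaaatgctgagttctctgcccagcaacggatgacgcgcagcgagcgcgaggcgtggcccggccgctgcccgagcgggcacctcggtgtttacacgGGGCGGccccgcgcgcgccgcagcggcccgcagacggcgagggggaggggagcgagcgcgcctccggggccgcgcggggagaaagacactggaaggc
Sox6, chr7:116031048-116031297: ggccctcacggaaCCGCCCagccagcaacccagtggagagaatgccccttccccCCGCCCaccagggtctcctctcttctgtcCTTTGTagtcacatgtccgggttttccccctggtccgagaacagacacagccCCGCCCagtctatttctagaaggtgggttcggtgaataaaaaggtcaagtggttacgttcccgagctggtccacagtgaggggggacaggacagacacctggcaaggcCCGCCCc

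Of the Sox4 stretch 238 of 250 bases lay under its interval, and of the Sox8 stretch all 250. None of the bases shown for Sox11, Sox12 or Sox6 did. With the 50 bases after the start added, 2 of the 7 genes with an entry (Sox4 and Sox8) had an interval on a promoter, as had 25.4% of the 17492 protein-coding genes with an entry. The Sox4 sequence held 4 CCAAT matches and no GC box. Among the 32851 promoters of the table, 33.8% held at least 1 CCAAT match in the same 250 bases and 0.84% held 4 or more. The limit of 4 is the count of Sox4 itself, so that share describes Sox4 and tests nothing. The Sox12 sequence held 35 CpG dinucleotides and 3 GC box matches, and its CpG count was at or above that of 97.4% of promoters, whose median was 6. Sox13, not shown, had 31 CpG but 0 GC box and 0 CCAAT matches. Sox8, Sox11 and Sox4 had 18, 17 and 11 CpG, Sox5 had 3, and the 6 Sox6 promoters had 1 to 10. GC box matches numbered 2 in each of the Sox8 and Sox11 sequences and 4 in the Sox6 sequence shown, while the other 5 Sox6 promoters and those of Sox5 and Sox13 had 0, and 32.7% of all promoters held at least 1. The promoters of Sox4, Sox5, Sox8, Sox11, Sox12 and Sox13 had no match to either SOX motif, whereas 5 of the 6 Sox6 promoters had at least 1. The motifs were present in 9.42% (AACAAT) and 16.5% (ACAAAG) of all promoters. These matches are letters in a window and not measured binding sites. The 2 genes of highest CpG count, Sox12 and Sox13, had no interval over these bases, but had intervals beginning 400 and 174 bp after the start. A link between CpG count and intervals was not tested.

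The SoxC genes included the highest scores of the 9. Sox4 had an interval at chr13:28951381-28953937 with a score of 964.74, rank 13 of the 6632 intervals, and a width of 2557 bp. It reached 238 bp past the start of Sox4 and covered 48.5% of the gene record. A second Sox4 interval, chr13:28958188-28959940, lay 4.49 kb beyond the same end with a score of 116.54, below the list median. It was within 1 kb of the ends of the lncRNA genes Gm46405 and Gm52067, so it may belong to either of these as much as to Sox4. Sox12 had an interval of 1311 bp at chr2:152396336-152397646 with a score of 383.94, rank 270. Another of 376.61 stood 15.28 kb outside its record, at the ends of Zcchc3 and 6820408C15Rik, and is nearer to those genes. Sox11, the closest relative of Sox4, had 1 interval at chr12:27341171-27342614 with a score of 178.15, rank 1771. The end intervals of the SoxC genes therefore ran from rank 13 to rank 1771. All 3 intervals overlapped the first part of the gene, but that of Sox4 also took in the promoter, while those of Sox11 and Sox12 began downstream of it.

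**Figure D1:**
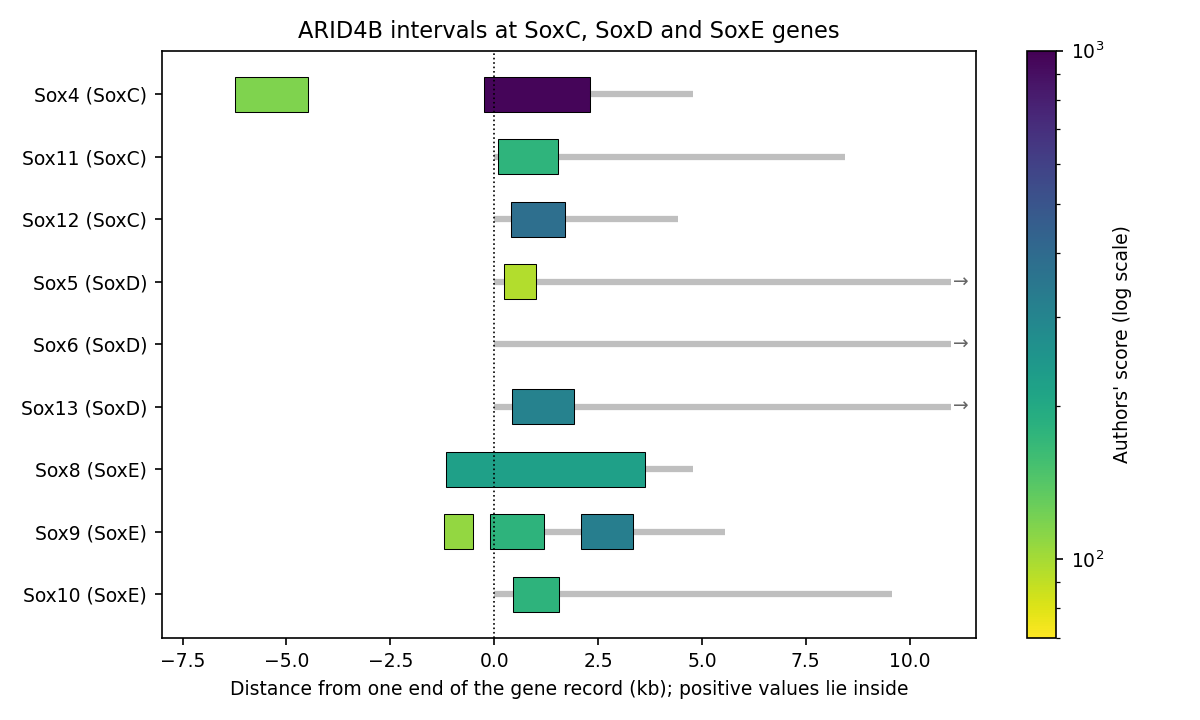
ARID4B intervals (boxes, coloured by the authors' score on a log scale) at the 9 genes, against distance in kb from an end of the gene record; grey lines are the records, cut at 11 kb where an arrow is drawn, and intervals further away are not drawn. The zero is the lower end of the Sox9 record and the higher end of the others, and boxes lie mostly to its right, inside the record, with Sox6 empty.

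SoxD held both the lowest end score of the 9 genes, at Sox5, and the gene with no interval, Sox6. Sox13, which encodes a SoxD protein studied in T cells, had an interval of 1490 bp at chr1:133422549-133424038 with a score of 309.16, rank 511. A second interval within 50 kb, with a score of 181.98, overlapped Etnk2 and lay 17.61 kb from Sox13. Sox5 had 1 interval, at chr6:144781291-144782051, with a score of 94.99 and a width of 761 bp. It is at the higher end of a record of 953.86 kb, the end where the outermost transcripts of a minus-strand gene begin. The promoter listed for Sox5 lies inside the record and its nearest interval was 779.04 kb away, so nothing was found there. Sox6, with a record of 569.91 kb, had no interval inside it and none within 50 kb. Its nearest was 266.46 kb above the record, and the 6 listed promoters were 268.24 to 505.37 kb from any interval. Of the 227 protein-coding genes of 500 kb or longer, 15% had an interval at an end, against 27.1% of all protein-coding genes. Among those under 10 kb the share was 19.3%. A link with length was not tested.

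The SoxE genes had lower end scores than Sox4, Sox12 and Sox13, and differed in how the intervals were laid out. Sox9 had 3 intervals in a stretch of 4549 bp. The first, chr11:112780998-112781693, lay 517 bp outside the lower end of the record with a score of 107.56. The next, chr11:112782118-112783400, covered that end with a score of 178.8. The third and best, chr11:112784304-112785546, was inside the record, 2094 bp from the end, with a score of 325.04, rank 444. The gaps between them were 424 and 903 bp. Of all protein-coding genes, 194 (0.886%) had 3 or more intervals in the record or within 5 kb of it. That limit is the count of Sox9 itself. The Sertoli marker genes Wt1 and Inhbb also reached it, each with 3 intervals overlapping the record. Since the best of the 3 Sox9 intervals is not at an end, the value for Sox9 depends on how far a window reaches: 178.8 within 1 kb and 325.04 within 5 kb.

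Sox8 had a single interval, chr17:25567051-25571837, of 4787 bp. It was the 8th widest of the 6632, covered 75.8% of the Sox8 record and extended 1151 bp past the start, where it was also within 1 kb of an end of the lncRNA gene Cerox1. Its score was 222.85, the lowest of the 8 intervals of that width or more, whose median was 995.62. Sox10 had an interval at chr15:79162931-79164039 with a score of 178.72, which lay 451 bp inside the higher end of its record. A further one with a score of 131.21 was 45.12 kb away at Micall1. The end intervals of Sox9, Sox10 and Sox11 had scores of 178.8, 178.72 and 178.15, and with no replicate these 3 have no measurable order.

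**Figure D2:**
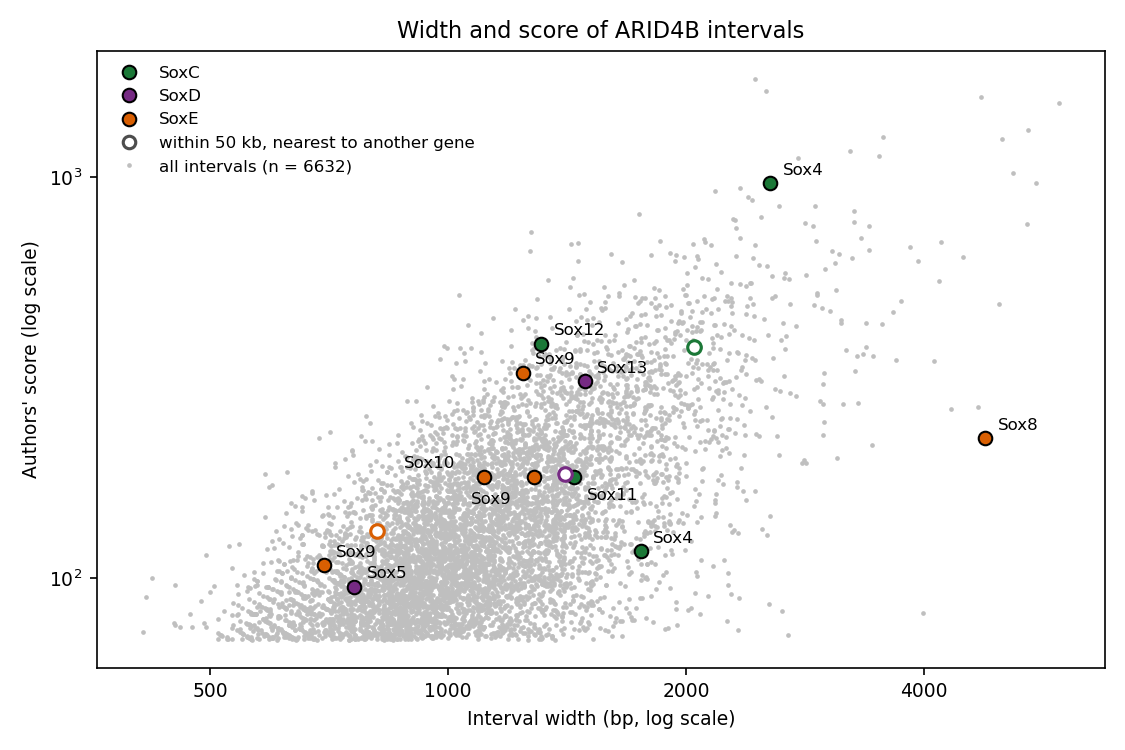
Width in bp against the authors' score for all 6632 intervals (grey points), both on log scales, with the 14 intervals of the 9 genes marked by group; open circles are the 3 that lie nearest to another protein-coding gene. Sox4 stands high at 2557 bp and 964.74, and Sox8 far to the right at 4787 bp with a score of 222.85.

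**Figure D3:**
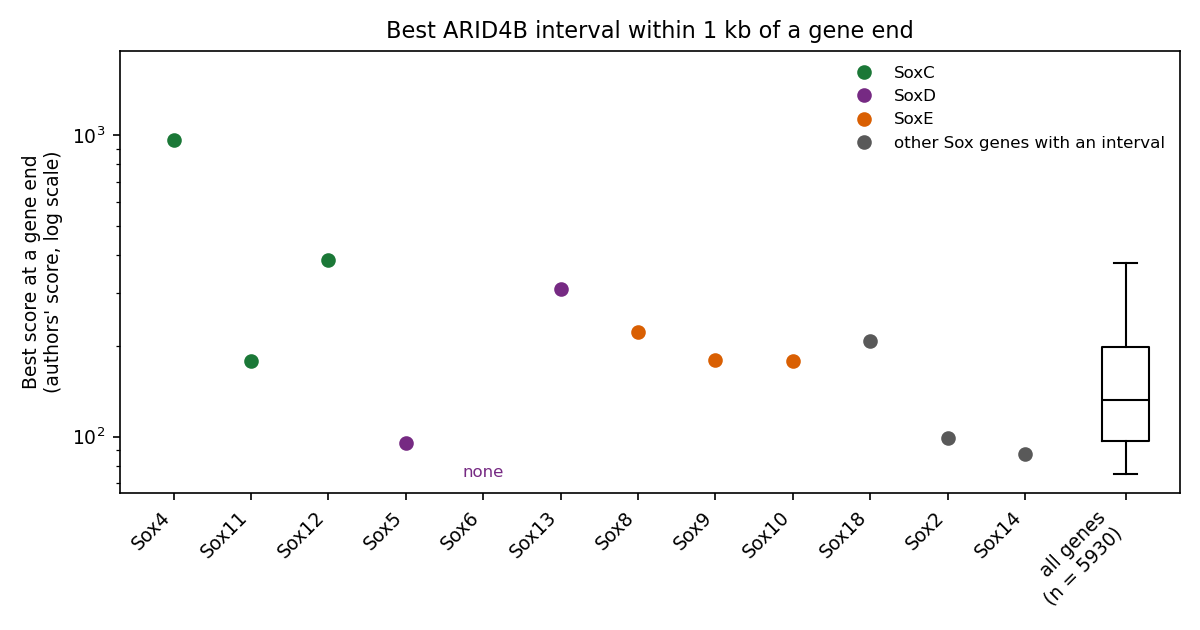
Best score within 1 kb of a gene end (log scale) for the 9 genes, for the 3 other Sox genes that have one, and as a box for all 5930 protein-coding genes with one (box, quartiles; line, median; whiskers, 5th and 95th percentiles). Sox4 and Sox12 lie above the upper whisker, and Sox5 lies below the median of 132.24 with Sox6 having none.

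The intervals lay further into the Sox genes than intervals usually did. Strand and a single listed start were available for 5 of the SoxC, SoxD and SoxE genes with an interval within 1 kb of the start. Their interval midpoints were 1040 bp (Sox4), 825.5 bp (Sox11), 1055 bp (Sox12), 918.5 bp (Sox13) and 1242 bp (Sox8) downstream of it. Over the 3857 protein-coding genes with 1 listed start and an interval within 1 kb of it, the median was 214 bp downstream (quartiles 60 and 386.5 bp). In that distribution 97% of midpoints were at or below the value of Sox4, 94.2% at or below that of Sox11, 97.4% of Sox12, 95.8% of Sox13 and 98.5% of Sox8. The intervals of Sox4 and Sox8 also reached upstream of the start. Outside these groups, the intervals of Sox2 and Sox14 began 553 and 532 bp after the start, with midpoints 1007 and 868 bp downstream. In the same distribution 96.7% of midpoints were at or below the value of Sox2 and 95% at or below that of Sox14. The placement was therefore not particular to the SoxC, SoxD and SoxE genes.

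Sox11, Sox12 and Sox13 had the whole interval downstream of the start, beginning 104, 400 and 174 bp after it. None of the 3 touched the 300 bases from 250 before to 50 after the start, and 9.62% of the 3857 genes had their interval entirely downstream of those bases. The 2 that did touch them were Sox4 and Sox8. At 88.7% of the 3857 genes the interval covered at least 1 of those bases. Measured from the end of the record instead, which needs no strand, the midpoints of the best end interval of the 8 genes lay 549 to 1242 bp inside it (median 1022.5 bp), and those of all 5930 genes a median of 270 bp inside (quartiles 85.5 and 516.5 bp). Sox9 was the shallowest with 549 bp and Sox5 followed with 616 bp. When the midpoint itself had to lie within 1 kb of an end, 3 of the 9 genes had an interval (Sox5, Sox9 and Sox11), as had 24.7% of all protein-coding genes. All 8 were 500 bp or more inside, a limit chosen after the values were seen, as were 26% of the 5930 genes and 28.1% of those under 10 kb. At Sox5, Sox10, Sox11, Sox12 and Sox13 the interval lay wholly inside the record, which was so at 20.7% of the 5930 genes.

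**Figure D4:**
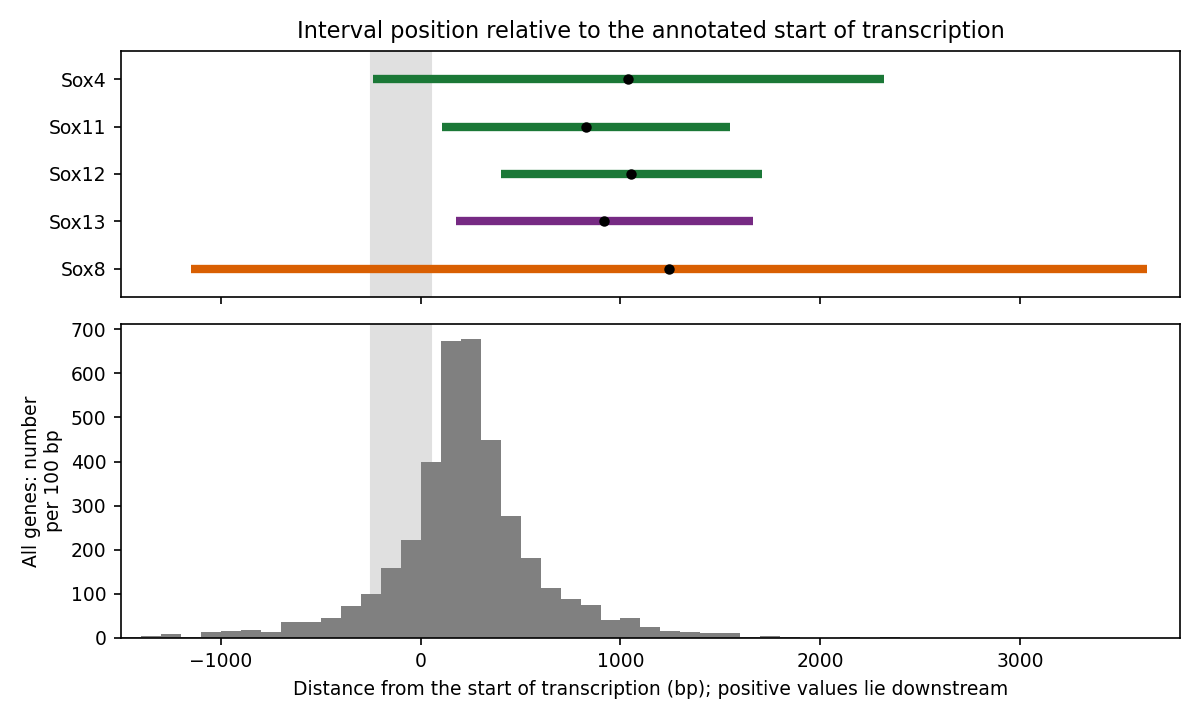
Upper panel, intervals (bars) and their midpoints (dots) against distance in bp from the start of transcription. They are drawn for the 5 SoxC, SoxD and SoxE genes with 1 listed start and an interval near it. Lower panel, the number of protein-coding genes per 100 bp of midpoint position for all genes (3857 in total). The grey band is the 300-base promoter window; the 5 dots lie between 825.5 and 1242 bp, to the right of the main peak, whose median is 214 bp.

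The surroundings of the genes differed widely. Beyond 50 kb, the next interval on the nearer side was 1030.27 kb from Sox4, 864.05 kb from Sox11 and 861.26 kb from Sox9. The median over all protein-coding genes was 136.07 kb, and the 3 gaps stood at percentiles 90.3, 88.3 and 88.3 of that distribution. These 3 genes had 1, 0 and 1 protein-coding neighbours within 500 kb, where the median was 16. The intervals of Sox9 were thus the only ones in a stretch that ran 3130.81 kb below the gene and 861.26 kb above it. Sox8, Sox10 and Sox12 had 48, 32 and 31 protein-coding neighbours, and their next intervals were 131.08, 79.13 and 60.94 kb away. Of the 6 genes under 10 kb long (Sox4, Sox8, Sox9, Sox10, Sox11 and Sox12), all had an interval at an end, while 19.3% of the 7925 protein-coding genes of that length did.

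Among the 11 other Sox genes, 3 had an interval at an end (background 27.1%). Sox18, which encodes an endothelial SoxF protein, had the best with 207.79, and Sox2, a gene of stem and neural progenitor cells, and Sox14 had 99.1 and 87.83. Sry, the switch of testis determination, had none, and no interval of the list lay on the Y chromosome. Sox1, Sox3, Sox7, Sox17 and Sox21 had none within 50 kb, and those near Sox15 (4 intervals) and Sox30 (1) were nearest to other genes. The Sox2, Sox14 and Sox18 intervals had midpoints 1007, 868 and 695 bp inside the nearer end, in records of only 2.47, 2.07 and 1.80 kb, and that of Sox18 covered 95.5% of its record and ran past its end.

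Genes that act above, with or under the 9 factors had intervals unevenly. Of 17 regulators and targets of SOX9 in the testis, 9 had an interval at an end. The best were at Wt1, a Sertoli cell transcription factor gene (626.23), Gadd45g, an activator of Sry in the mouse (521.95), Amh, the anti-Müllerian hormone gene (352.5, at an interval that also reaches Jsrp1), and the Polycomb gene Cbx2 (249.75). Fgf9, the growth factor gene that sustains Sox9, had none within 50 kb, nor had Map3k4. Nr5a1, Gata4 and Cyp26b1 had none at an end but 1, 2 and 2 inside the record. Cartilage targets of SOX9, SOX5 and SOX6 had an interval at 2 of 11 genes, Comp (140.8) and Sox5 itself, with none at an end of Col2a1 or Acan. Of 12 glial and neural crest targets of SOX10, only Mbp had one at an end (124.79), and of 7 targets of SOX4 and SOX11 only the integrin gene Itga6 (97.97). All of these counts are to be read against 27.1% of all protein-coding genes.

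The markers of testis cell types were counted in the same way, since the testes were not sorted. An interval at an end was present for 5 of 8 Sertoli markers (Sox9, Wt1, Amh, Dmrt1 and Inhbb) and for 1 of 6 germ cell markers (Dazl). Of 5 Leydig markers none had one, and of 7 Schwann cell and neural crest markers only Sox10 did. Wt1, Amh and Dmrt1 were already counted, with the same intervals, among the regulators and targets of SOX9. Sox9 and Sox10 are themselves among the 9 genes, so these counts are not independent of those above. The share over all protein-coding genes was 27.1%, and no list was tested against it. An interval does not measure transcription, so these counts do not say which cells were present or carried the signal at Sox8, Sox9 or Sox10.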

How the data were processed

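ChIP-seq with an anti-ARID4B antibody and input DNA came from 1 pool of testes. BWA, MACS and build mm9 are named, per the submitters' processing notes. Their versions and filters, and the handling of multiply mapped reads, are not stated there. As deposited by the authors, the data are 1 interval list with a score per interval. Its file name calls the values p-values, but all exceed 70, so they were treated as scores of unknown scale. The file name gives mm10 where the notes give mm9. As given, 80.26% of the positions reached the 1 kb around an end of a protein-coding record of RefSeq GRCm38.p6, against 13.27 and 12.92% after shifts of 5 kb up and down, so positions were read as GRCm38 and printed counting from 1. Without replicates or depth no test or interval was computed.

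Overlaps (at least 1 bp) with gene records, ends (1 kb either side) and RefSeq promoter windows were counted in Python 3.11.15 with pandas 2.3.3, and the overlap step was tested on simulated data. Strand came from the promoter table, exons were not used, and values of the input were not used here. Sequences are from RefSeq (GRCm38.p6). The genes and lists were chosen with earlier results of these data known. All members, all other Sox genes and up to 4 genes with the best scores and 4 without an interval in each list were to be named, with the genes whose ends an interval of a member reaches; others, and the genes named with intervals inside their record, were added once values had been seen. The alternatives tried were intervals scoring above the list median, windows of 500 bp and 5 kb, reaches of 20 and 100 kb, midpoints in place of overlaps, and intervals nearest to the member only.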

Additional observations from a re-analysis of the deposited data

How the results depend on the processing

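The count of Sox genes with an interval at an end was 7 with intervals scoring above the list median (Sox5 dropped out; 14.8% of all protein-coding genes had one), 8 with windows of 500 bp or 5 kb either side (25.3 and 32.1% of all genes), and 3 for midpoints within 1 kb of an end (Sox5, Sox9 and Sox11; 24.7%). The last follows from midpoints 1005 to 1242 bp inside the record at the other 5 genes. With midpoints, 0 rather than 2 genes had an interval on the promoter window. Among the other Sox genes the count was 1, Sox18, with intervals above the median (14.8% of all genes) and with windows of 500 bp (25.3%). The 14 intervals became 13 with a reach of 20 kb, 18 with 100 kb, 11 above the median and 11 nearest to the gene. The number of genes with any was 7 above the median and 8 with the other settings. No paired analysis was possible because the ChIP and the input are 1 library each. Depth is unknown, so the lack of an interval at Sox6 says only that none was called in this library.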
